A study of Mus musculus with 32 samples.

Results

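The Hox genes described here are 38 genes of the 4 mouse Hox clusters, taken by symbol from a list, among 23236 gene symbols in the tables. The list holds 10 genes of HoxA, 10 of HoxB, 9 of HoxC and 9 of HoxD. Of the 38, 32 reached a mean of at least 1 FPKM (fragments divided by the length of the transcript and by sequencing output, so a level per length) in at least 1 dissected part and stage. The other 6 were Hoxb1, Hoxc9, Hoxc11, Hoxc12, Hoxc13 and Hoxd1, of which Hoxc12 was listed at 0 in all 32 libraries and Hoxc13 in 30 of them.

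Total RNA, depleted of ribosomal RNA and sequenced with strand kept, came from dissected parts of the mouse digestive tract in 32 libraries, 16 of wild-type and 16 of percc1-/- animals, with 1 library of each genotype for each part and stage. The percc1-/- allele carries a loxP site in place of 1512 bp of chromosome 17 (positions 25175032 to 25176543, mm9). The allele was built in embryonic stem cells of the line W4/129S6 by homologous recombination and Cre removal of a neomycin cassette. Both genotypes are described as a mixed 129SvEv and C57BL/6 background. The parts were whole stomach at postnatal days P1 and P5, the bottom part of the stomach at P10, P15 and P20, the top of the intestine at P1, P5 and P15, and its bottom at P1, P5, P10 and P20, each dissected by dividing the organ in the middle. The large bowel was taken as 1 piece (colon with rectum) at P1 and as separate colon and rectum at P5, and whole gut was taken at embryonic day E14.5. The labels do not say whether libraries came from separate animals, whether parts came from the same animals, or whether animals were pooled, so p-values measure the spread between these libraries, which may be technical. No record carries the percc1 symbol. Of the 16 percc1-/- libraries, 4 list a record without a symbol that starts and ends between these positions, at up to 2.28 FPKM, and none of the 16 wild-type libraries does, so these records go against the labels if the positions are mm9. The same numbers also fall within Percc1 in RefSeq GRCm38.p6, so the build of the positions is in doubt, and the genotype labels were not checked by these values.

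Hox genes encode homeodomain transcription factors that give cells along the head-to-tail axis their regional identity. Within a cluster the genes lie in the order in which they act along that axis: low-numbered groups (the paralogs that occupy the same place in each cluster) start to be expressed early and anteriorly, high-numbered groups late and posteriorly. In the gut they act mostly in the mesoderm, which becomes smooth muscle and connective tissue, and the group 13 genes Hoxa13 and Hoxd13 are known for their roles in the hindgut and anorectum. In the gene models used here (mm9), HoxA spans chromosome 6 from 52112350 to 52210874, HoxB chromosome 11 from 96055630 to 96229570, HoxC chromosome 15 from 102751534 to 102867274, and HoxD chromosome 2 from 74506367 to 74603200.

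Sequences were available for the promoters of 22 of the 38 genes (RefSeq, GRCm38.p6), and the 250 bases upstream of the start are shown for the posterior members Hoxa13, Hoxd13 and Hoxd12, whose levels were highest in the rectum. Capitals mark CCAAT, a short element read on both strands (CCAAT or ATTGG). The windows are chr6:52260881-52261130 on the minus strand, chr2:74667975-74668224 on the plus strand and chr2:74674763-74675012 on the plus strand.
Hoxa13: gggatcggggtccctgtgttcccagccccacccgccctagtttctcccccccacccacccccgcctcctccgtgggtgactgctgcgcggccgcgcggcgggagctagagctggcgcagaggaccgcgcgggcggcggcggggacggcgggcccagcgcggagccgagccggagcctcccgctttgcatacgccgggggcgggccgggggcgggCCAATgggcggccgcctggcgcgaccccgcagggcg
Hoxd13: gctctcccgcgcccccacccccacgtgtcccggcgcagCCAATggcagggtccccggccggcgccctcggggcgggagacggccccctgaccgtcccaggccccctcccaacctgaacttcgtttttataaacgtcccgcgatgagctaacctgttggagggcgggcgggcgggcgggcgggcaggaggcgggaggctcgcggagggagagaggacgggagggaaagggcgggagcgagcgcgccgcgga
Hoxd12: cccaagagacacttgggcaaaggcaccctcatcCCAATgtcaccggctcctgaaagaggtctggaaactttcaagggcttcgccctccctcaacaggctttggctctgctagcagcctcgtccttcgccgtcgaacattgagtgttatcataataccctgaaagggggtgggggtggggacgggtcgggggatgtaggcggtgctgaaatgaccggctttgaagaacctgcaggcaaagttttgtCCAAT
The window of Hoxa13 is 80.0% G or C, that of Hoxd13 74.4% and that of Hoxd12 55.6%. These 22 genes have 24 windows. CCAAT was found in 14 of the 24 windows (58.3%), against 33.8% of all 32851 promoter windows. The letters TTTATG (or CATAAA), close to the sequence that caudal-type factors such as Cdx2 bind, were found in 5 of the 24 (20.8%; Hoxa7, Hoxb8, Hoxd11, Hoxd3 and Hoxd4) against 10.8% of all windows, and TATAAA (or TTTATA) in 4 of the 24 (16.7%) against 12.4%. A match describes letters in a window of fixed length.

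The clusters also encode microRNAs, short RNAs that repress target transcripts through their seed, and several Hox records in these tables were merged with a microRNA host symbol: Mir10a with HoxB genes, Mir10b with HoxD genes, Mir196a-1 with Hoxb9 and Mir196b with Hoxa9 and Hoxa10. The mature sequences (RefSeq, GRCm38.p6) fall into 2 seed families, with the seed, bases 2 to 8, in capitals.
miR-10a-5p: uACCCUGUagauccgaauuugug
miR-10b-5p: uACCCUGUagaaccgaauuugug
miR-196a-5p: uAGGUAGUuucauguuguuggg
miR-196b-5p: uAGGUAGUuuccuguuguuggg
The members of each pair differ at 1 base and share the seed. Their own levels were not measured, because libraries of this kind do not capture mature microRNAs.

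Of the 38 genes, 21 stood in a record of their own in all 32 libraries and 17 were merged with a neighbour in at least 1. A merged record gives 1 level for several genes and was not split, so such a gene has no value of its own in that library. In a second form of the table the symbols ever merged together were joined by summing their records, which gave 30 units (for example Hoxa9 with Hoxa10, and Hoxd10 with Hoxd11). Levels below are deposited FPKM, and differences are on the log2 scale of FPKM + 1 after rescaling libraries, from limma with Benjamini-Hochberg adjustment over all genes tested, with their standard error (SE). Differences within single pairs of libraries were taken without rescaling. A gene is said to rise or fall where its adjusted p was under 0.05.

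Before the results, 7 of the 9 percc1-/- libraries of P1 and P5 stood apart from their wild-type partners in markers of another organ or region. In top intestine at P1 the percc1-/- library had Atp4a, the acid pump of stomach parietal cells, at 29.8 FPKM against 0.185 in its wild-type partner, and Car1, a colon enzyme, at 13.95 FPKM where the partner was listed at 0. In top intestine at P5 the percc1-/- library had Car1 at 11.7 FPKM against 0.098. The summed level of the 6 large bowel markers was 37.6 and 44.1 FPKM in these percc1-/- top intestine libraries, 21.8 and 28.6 in the wild-type ones, and 51.2 to 125.6 in the large bowel. The percc1-/- libraries of bottom intestine at P1 and P5, colon at P5 and stomach at P1 and P5 also held such markers, for example Krt5 of squamous epithelium at 14.2 FPKM in bottom intestine at P5 against 0.033, and Fabp6 of the ileum at 13.6 FPKM in stomach at P1 against 1.96. For single genes, results that rest on these libraries are given with and without them where such a fit was run and the call changed. Joined units were not fitted without them, and rectum against colon was not fitted without all 7. Their part in the other results was not tested. Wild-type libraries held such markers too. Exocrine pancreas markers (9 genes) summed to 135.9 and 178.4 FPKM in wild-type top intestine, against 10.65 and 23.9 in percc1-/- (P1, then P5). In whole stomach they summed to 79.6 and 97.4 FPKM in wild type, against 2.55 and 19.2. Stomach markers in top intestine summed to 105.7 and 98.9 FPKM in wild type, against 243.2 and 4.41. Fits without the 7 libraries still hold these, and their part was not tested. In these tissue homogenates, fewer cells of a type and less RNA per cell cannot be told apart.

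The 30 Hox units summed to 57.5 to 74.9 FPKM in stomach, 29.2 to 54.1 in top intestine, 31.3 to 51.0 in bottom intestine and 134.8 to 182.4 in the large bowel at P1 and P5. The composition of that sum differed most in the posterior genes, groups 9 to 13, which made up 14 of the units. They held 1.18% to 2.47% of the Hox sum in the 4 stomach libraries of P1 and P5, and 2.30% to 4.90% in the 4 bottom intestine libraries. In top intestine they held 3.14% and 2.30% in the wild-type libraries of P1 and P5 but 24.4% and 33.8% in the percc1-/- libraries, the same libraries that held large bowel markers. Counting records of Hox symbols alone, without those of Gm53, the percc1-/- values were 16.9% and 31.5% and the wild-type ones 2.45% and 1.80%. In 3 of the 6 large bowel libraries Hoxb9 had a record of its own, well below its unit. In wild-type colon it stood at 14.70 FPKM, against 31.92 for the unit. In colon with rectum it stood at 5.10 FPKM against 14.46 in percc1-/-, and 5.23 against 12.32 in wild type. The shares given next include the rest of the unit, from Gm53 or Mir196a-1, so Hoxb9 alone would give lower shares in these libraries. In the other large bowel libraries Hoxb9 was merged and could not be separated. In colon they held 43.2% and 48.6%, in colon with rectum 51.5% and 40.3%, and in rectum 74.7% and 76.7% (percc1-/- first, then wild type, as in all pairs of values below). No stomach or bottom intestine library of these stages reached the lowest large bowel library.

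**Figure D1:**
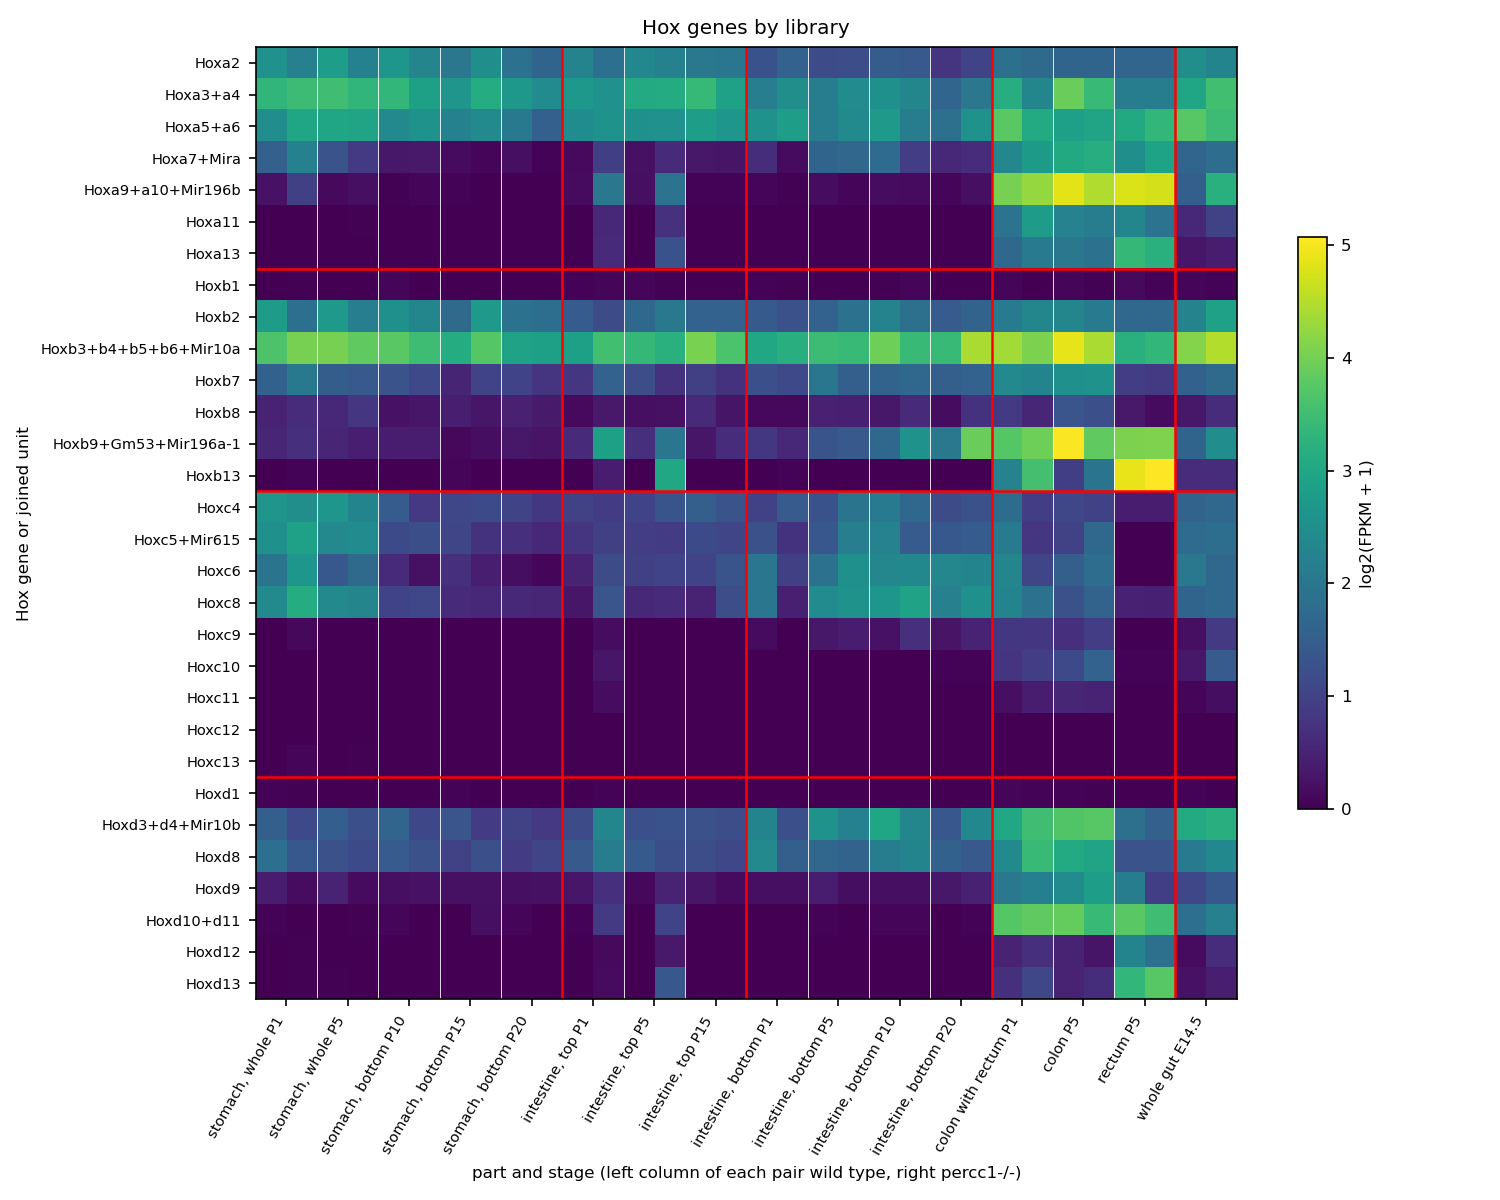
Level of each Hox unit (rows, ordered by cluster and group) in each library (columns, ordered along the gut), as log2 of deposited FPKM + 1. The rows of Hoxa9 to Hoxa11 and of Hoxd10 with Hoxd11 are high in both colon and rectum, those of Hoxb13, Hoxd12 and Hoxd13 mainly in rectum, and Hoxa9 with Hoxa10 is also above 0 in the percc1-/- top intestine libraries of P1 and P5.

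**Figure D2:**
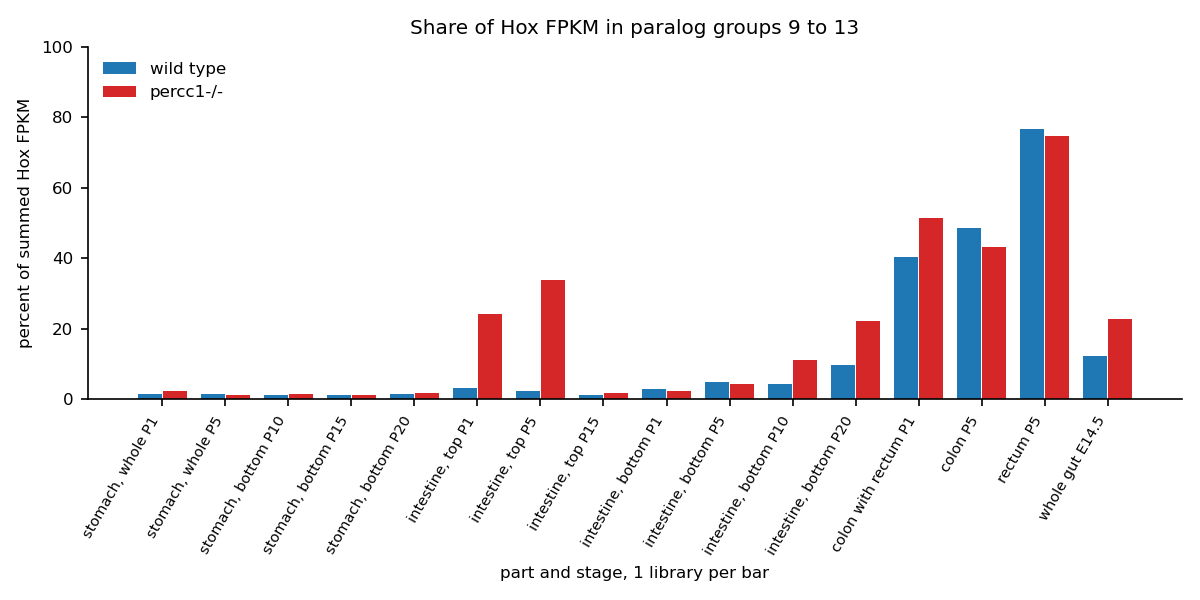
Percent of the summed Hox FPKM that came from groups 9 to 13 in each library, by part and stage, where the Hoxb9 unit includes the noncoding Gm53. The large bowel libraries sit between 40.3% and 76.7%, and the percc1-/- top intestine libraries of P1 and P5 sit at 24.4% and 33.8%.

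The first question was whether Hox levels differed between the 4 regions at P1 and P5, the stages at which each region was sampled, in 18 libraries. There were 12 Hox genes that averaged 1 FPKM or more and had a value in each library, and 8 of them differed between regions, against 45.5% of all 13171 genes tested. In the joined table, 15 of 21 Hox units differed, against 45.4% of all units tested. The 4 single genes that did not pass were Hoxb7 (adjusted p = 0.216), Hoxc6 (0.198), Hoxd8 (0.0625) and Hoxd13 (0.0545). The genes that could be tested are the better expressed ones, so these counts do not speak for all 38.

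From stomach to top intestine, 3 of 12 Hox genes fell and none rose, against 19.4% of all genes tested that fell. Without the percc1-/- colon library 14 Hox genes were tested and 1 rose, against 17.26% of all genes tested that rose. Hoxc8, a thoracic-level gene of HoxC, stood at 7.75 and 4.39 FPKM in stomach at P1 and 3.95 and 4.20 at P5. In top intestine it stood at 1.53 and 0.243 FPKM at P1 and 0.546 and 0.500 at P5, so the groups did not overlap, as for 15.6% of all genes tested with stomach above top intestine. The log2 difference was -1.89 (SE 0.48, adjusted p = 0.00628), a fall. Hoxc4, the most 3' gene of HoxC, stood at 4.68 and 5.24 FPKM in stomach at P1 and 3.88 and 5.30 at P5. In top intestine it stood at 0.876 and 0.998 FPKM at P1 and 1.5 and 1.02 at P5, again without overlap, and fell by 1.4985 (SE 0.29, adjusted p = 0.000786). Mean Hoxc4 was 4.78 ± 0.66 FPKM (SD, n = 4) in stomach and 1.10 ± 0.27 (SD, n = 4) in top intestine. Hoxb2, an anterior HoxB gene best known from the hindbrain, stood at 2.61 and 5.87 FPKM in stomach at P1 and 3.49 and 5.62 at P5. In top intestine it stood at 1.27 and 1.76 FPKM at P1 and 3.10 and 2.28 at P5, so its highest top intestine library lay above its lowest stomach library. It fell by 0.81 (SE 0.23, adjusted p = 0.0125), and without the wild-type stomach library of P1 the adjusted p was 0.0536.

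Hoxc6, which stands between Hoxc5 and Hoxc8 in the cluster, stood at 5.30 and 2.87 FPKM in stomach at P1 and 2.39 and 1.65 at P5, and at 1.22 and 0.401 then 1.02 and 0.948 FPKM in top intestine. The groups did not overlap, but its difference of -1.08 (SE 0.50) did not pass (adjusted p = 0.105). With merged symbols joined, 5 of 21 units fell, against 19.3% of all units. The added units were Hoxc5 with Mir615, which fell by 1.73 (SE 0.43, adjusted p = 0.00499), and Hoxa7 with Mira, a noncoding RNA beside it, which fell by 1.05 (SE 0.35, adjusted p = 0.0283). The median difference was -0.10 over the 12 Hox genes and -0.03 over all genes tested, and the Hox median turned to 0.05 at a filter of 0.2 FPKM and to 0.11 without the percc1-/- colon library, where the genes tested were not the same. HoxC as a cluster held 22.7% to 32.5% of the Hox sum in stomach and 7.23% to 9.61% in top intestine at these stages. Summed fibroblast markers (7 genes) spanned 147 to 252 FPKM in stomach and 136 to 165 in top intestine, and summed smooth muscle markers (7 genes) 248 to 353 and 174 to 183. Squamous epithelium markers (6 genes) summed to 107 to 166 FPKM in stomach and 1.41 to 9.21 in top intestine, and both of the 2 tested fell (median -4.19). Skeletal muscle markers (7 genes) summed to 31.3 to 52.3 and 9.40 to 10.5 FPKM, and all 4 tested fell (median -1.74). The part of these cell classes in the differences was not tested.

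**Figure D3:**
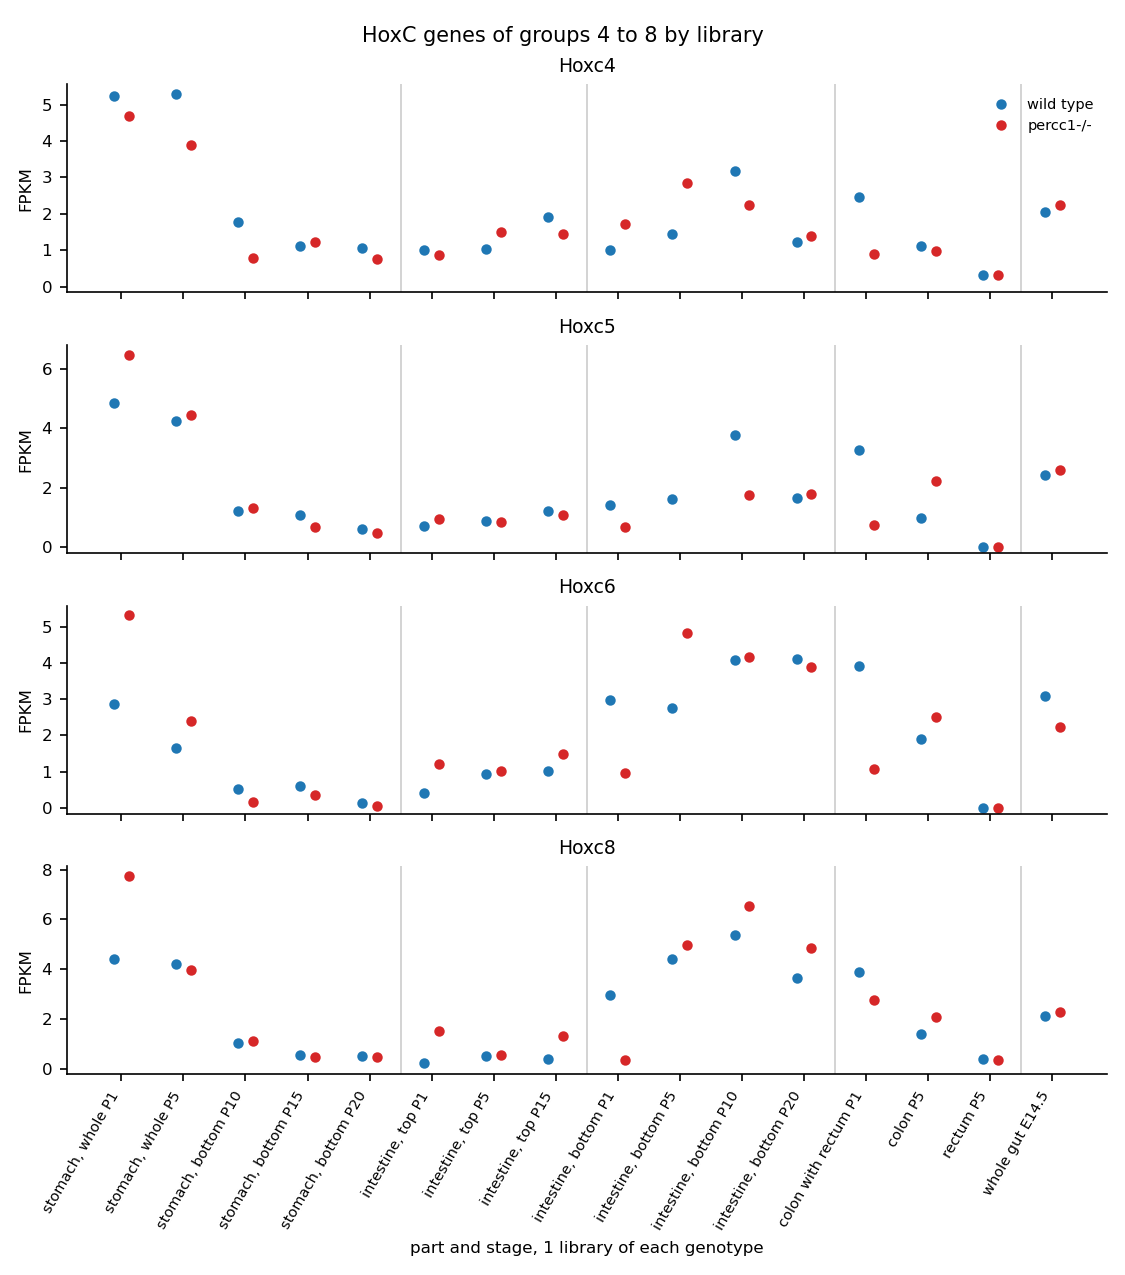
Deposited FPKM of HoxC genes in each library, by part and stage, for both genotypes. Whole stomach at P1 and P5 is high for Hoxc4 to Hoxc8, the later bottom stomach is low, and the bottom intestine is above the top intestine for Hoxc8 in 3 of its 4 libraries of P1 and P5.

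Between top and bottom intestine none of the 12 Hox genes passed the test in limma, against 0.0456% (6 genes) of all genes tested. At an unadjusted p under 0.05 there were 2 Hox genes and 728 genes in all. Hoxa2, the most anterior HoxA gene of the list, stood at 2.60 and 3.80 FPKM in top intestine at P1 and 3.68 and 4.18 at P5. In bottom intestine it stood at 2.02 and 1.42 FPKM at P1 and 1.31 and 1.26 at P5, so the groups did not overlap, as for 1.71% of all genes tested with top above bottom. The difference was -0.86 (SE 0.16, adjusted p = 0.1005). It passed without the percc1-/- bottom intestine library of P1 (-1.02, adjusted p = 0.0193), without the percc1-/- top intestine library of P1 (-0.99, adjusted p = 0.0280), and without the 7 percc1-/- libraries with markers of another organ (-1.12, adjusted p = 0.0387).

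Hoxc8 ran the other way, at 0.364 and 2.95 FPKM in bottom intestine at P1 and 4.97 and 4.42 at P5. The percc1-/- library of P1 lay within the range of the top intestine and the other 3 above it. The difference was 1.14 (SE 0.48, adjusted p = 0.851), and ranged from 0.81 without the percc1-/- bottom intestine library of P5 to 1.73 without that of P1 (adjusted p = 0.178), so a difference between top and bottom was not established. Bottom intestine stayed at 6.54 and 5.36 FPKM of Hoxc8 at P10 and 4.85 and 3.64 at P20, while top intestine stood at 1.29 and 0.402 at P15. These later stages differ between top and bottom and were not compared by a test.

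From bottom intestine to large bowel, 6 of 12 Hox genes rose, against 16% of all genes tested, and none fell. Without the wild-type library of colon with rectum 1 fell, Hoxc4 (-0.71, SE 0.21, adjusted p = 0.0253). The 6 that rose had large bowel libraries that were all above the bottom intestine ones, as for 8.37% of all genes tested. The rise was led by posterior genes. Hoxa13 was listed at 0 in all 4 bottom intestine libraries of P1 and P5, and stood at 3.30 and 2.22 FPKM in colon with rectum at P1, 2.74 and 3.04 in the colon and 8.30 and 9.38 in the rectum at P5. Its difference was 2.37 (SE 0.30, adjusted p = 8.4e-05). Hoxa11, best known from limb and uterus, was also listed at 0 in the 4 bottom intestine libraries, and stood at 6.00 and 2.80 FPKM in colon with rectum, 3.42 and 3.73 in colon, and 2.81 and 4.01 in rectum. Its difference was 2.28 (SE 0.17, adjusted p = 7.2e-06), and its colon and rectum libraries overlapped. Hoxd9 stood at 0.150 and 0.158 FPKM in bottom intestine at P1 and 0.143 and 0.314 at P5. In the large bowel it stood at 3.55 and 3.02 FPKM at P1, 6.20 and 4.47 in colon and 0.920 and 3.37 in rectum, without overlap. It rose by 1.89 (SE 0.28, adjusted p = 0.000244). With libraries of P5 alone its adjusted p was 0.0689.

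The group 13 genes of HoxB and HoxD were measured mainly in rectum. Hoxb13 stood at 10.97 and 3.73 FPKM in colon with rectum at P1, 2.89 and 0.912 in the colon and 32.58 and 28.69 in the rectum at P5, against 0.040 and 0 in bottom intestine at P1 and 0 in both libraries at P5. It rose by 3.07 (SE 0.70, adjusted p = 0.00422). Hoxd13 stood at 1.12 and 0.637 FPKM in colon with rectum, 0.591 and 0.399 in colon, and 12.4 and 9.23 in rectum, and was listed at 0 in the 4 bottom intestine libraries. It rose by 1.61 (SE 0.55, adjusted p = 0.0375). In wild-type libraries alone the adjusted p was 0.0890 for Hoxb13 (difference 2.71) and 0.204 for Hoxd13 (1.48), and without the 7 percc1-/- libraries it was 0.0778 (2.67) and 0.270 (1.41). Hoxd13 also missed the threshold when any 1 of the 4 bottom intestine libraries was left out (adjusted p = 0.0534 to 0.0968), and without either rectum library it fell under the 1 FPKM filter. Hoxd12, the neighbour of Hoxd13, was under that filter in the whole comparison. It stood at 2.66 and 3.89 FPKM in rectum, 0.227 and 0.414 in colon and 0.597 and 0.393 in colon with rectum, and was listed at 0 in bottom intestine.

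Hoxa2 was the one anterior gene among the 6, at 2.10 to 2.65 FPKM in the 6 large bowel libraries with a median of 2.14. Its difference was 0.41 (SE 0.14, adjusted p = 0.0406), and it did not pass in 13 of 28 alternatives, among them P1 alone (0.38), P5 alone (0.49) and leaving out any 1 of 3 bottom intestine libraries (0.32 to 0.40). Of the joined units, 11 of 21 units rose, against 15.9% of all units. Hoxa9 with Hoxa10 stood at 18.4 and 15.3 FPKM in colon with rectum, 21.2 and 27.9 in colon and 25.7 and 26.6 in rectum, against 0.024 to 0.131 in bottom intestine, a rise of 4.47 (SE 0.32, adjusted p = 2.2e-06). Hoxd10 with Hoxd11 stood at 13.2 and 12.3, 9.68 and 13.6, and 10.4 and 12.7 FPKM in the same parts, against at most 0.041 in bottom intestine, a rise of 3.73 (SE 0.19, adjusted p = 5.6e-08). Hoxb9 with Gm53 and Mir196a-1 rose by 3.10 (SE 0.38, adjusted p = 7.2e-05). Hoxa7 with Mira rose by 1.80 (SE 0.32, adjusted p = 0.000856), and Hoxa5 with Hoxa6 by 0.75 (SE 0.19, adjusted p = 0.00675). All 11 lay without overlap between the regions, as did 8.28% of all units.

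The median difference over the 12 Hox genes was 0.63, against 0.03 over all genes tested. In HoxC the posterior members stayed low in the large bowel: Hoxc10 reached 2.02 and 1.17 FPKM in colon and 0.901 and 0.697 in colon with rectum, but 0.036 and 0.033 in rectum, and Hoxc9 did not exceed 0.901 FPKM in any library. Summed markers of enteric neurons and glia (9 genes) spanned 51.5 to 72.0 FPKM in the large bowel and 29.1 to 42.7 in bottom intestine. Summed smooth muscle markers spanned 219 to 330 and 128 to 231. All 7 smooth muscle markers rose (median 0.63, as for the Hox genes), and 7 of 9 enteric neuron and glia markers did (median 0.89). Of fibroblast markers 3 of 7 rose (median 0.34), and of epithelium markers 2 of 5 tested fell (median -0.30). The part of these cell classes in the rise was not tested.

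**Figure D4:**
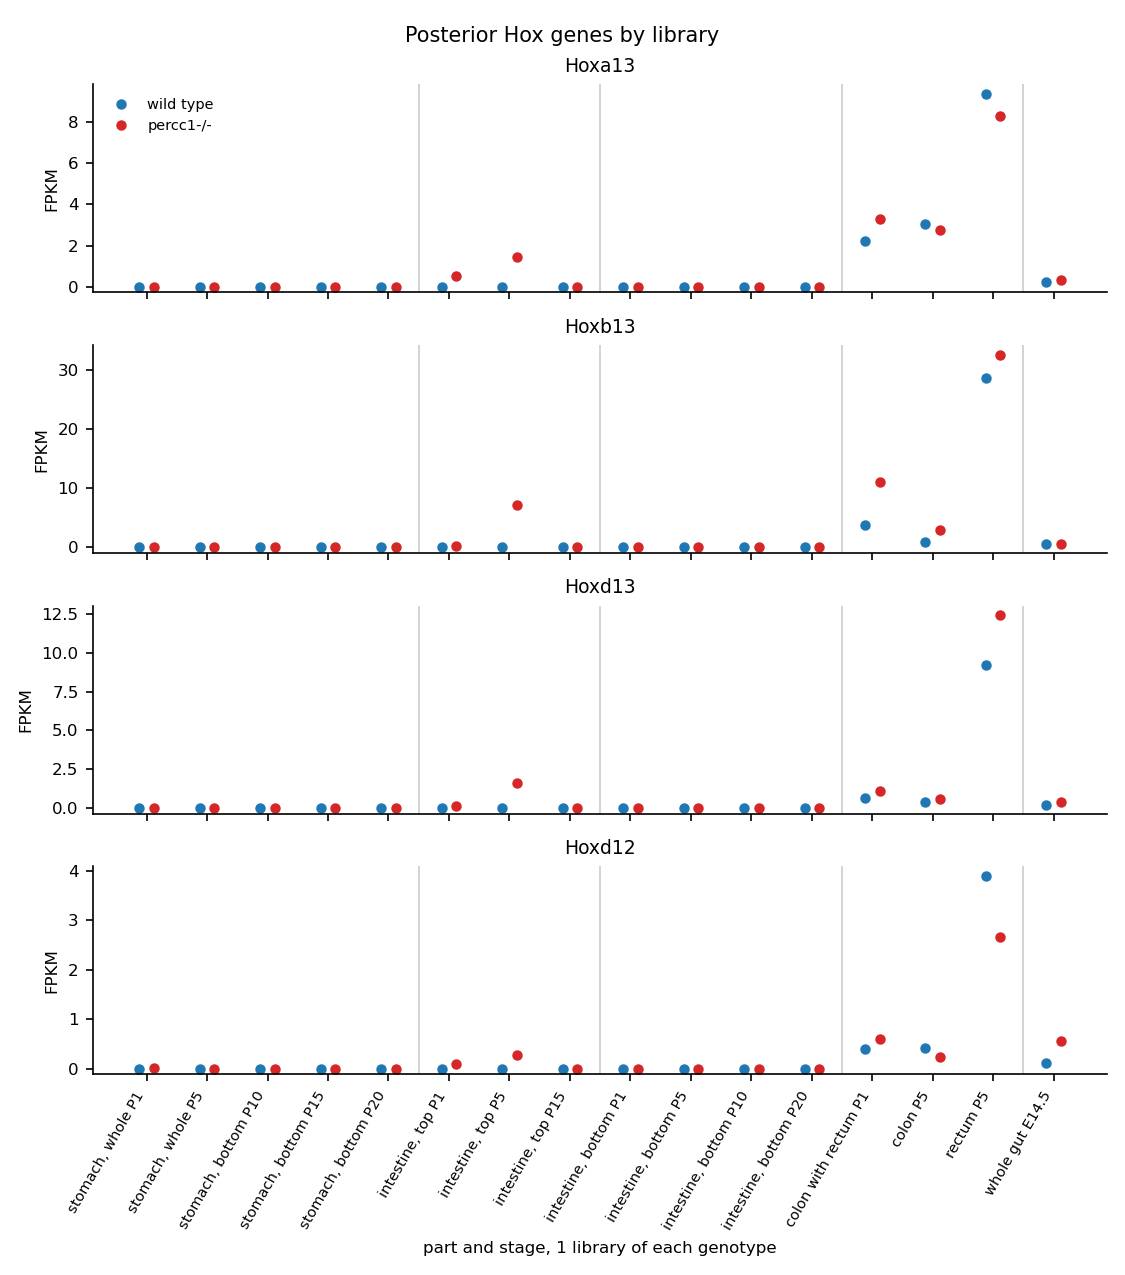
Deposited FPKM of posterior Hox genes in each library, by part and stage, for both genotypes. Hoxb13, Hoxa13 and Hoxd13 are highest in the 2 rectum libraries, and the percc1-/- top intestine library of P5 has Hoxb13 at 7.14 FPKM where its wild-type partner is listed at 0.

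Within the large bowel at P5, rectum was compared with colon, 2 libraries against 2. Of the 12 Hox genes, 2 rose in rectum, against 0.22% of all genes tested, and 2 fell, against 0.706%. Hoxb13 rose by 3.44 (SE 0.66, adjusted p = 0.0295) and Hoxd13 by 2.91 (SE 0.33, adjusted p = 0.00159), with the values given above. Hoxa13 differed by 1.23 (SE 0.31, adjusted p = 0.0972), and passed without the percc1-/- top intestine libraries of P1 and P5 (adjusted p = 0.0100). Hoxb7 stood at 4.99 and 4.80 FPKM in colon and 0.816 and 0.900 in rectum, and fell by 1.77 (SE 0.33, adjusted p = 0.0261). Hoxd8 stood at 6.78 and 7.55 FPKM in colon and 1.45 and 1.47 in rectum, and fell by 1.84 (SE 0.30, adjusted p = 0.0129). With 2 libraries a side, both rectum libraries lay above both colon ones for 32.5% of all genes tested and below for 16.8% (these 4 genes are among them).

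With merged symbols joined, 5 units fell in rectum, against 0.715% of all units. These were Hoxb7, Hoxd8, Hoxa3 with Hoxa4 (-1.63, SE 0.31, adjusted p = 0.0265), Hoxb3 to Hoxb6 with Mir10a (-1.50, SE 0.24, adjusted p = 0.0119), and Hoxd3 with Hoxd4 and Mir10b (-2.13, SE 0.40, adjusted p = 0.0259). The last stood at 12.6 and 11.9 FPKM in colon and 1.94 and 2.67 in rectum. HoxC held 7.57% and 4.17% of the Hox sum in colon and 0.48% and 0.49% in rectum, and Hoxc5 and Hoxc6 were listed at 0 in both rectum libraries. Hoxc6 stood at 2.50 and 1.91 FPKM in colon, and its difference of -1.74 did not pass (adjusted p = 0.181). The median over the 12 Hox genes was -0.64, against -0.04 over all genes tested. Each contrast compares 4 libraries, with the spread estimated over all 18. Without the percc1-/- colon library 1 Hox gene and 13 genes in all passed, without the wild-type colon library 1 and 41, without the percc1-/- rectum library 0 and 14, and without the wild-type rectum library 1 and 61. At a lower filter of 0.2 FPKM 8 of 16 Hox genes passed: the added ones were Hoxd12, higher in rectum by 1.63, and Hoxc10 (-1.37), Hoxb8 (-1.12) and Hoxc9 (-0.85). With a pseudocount of 0.1 FPKM neither Hoxb13 (4.01) nor Hoxd13 (4.09, adjusted p = 0.0976) passed.

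Several anterior and central genes were merged in some libraries, and their units had these levels at P1 and P5. Hoxa3 with Hoxa4, of the cervical groups, stood at 9.09 to 10.4 FPKM in stomach, 4.88 to 7.72 in top intestine, 3.39 to 4.64 in bottom intestine, 4.05 to 14.02 in colon with rectum and colon, and 3.42 and 3.43 in rectum. Hoxa5 with Hoxa6 stood at 4.62 to 6.97 FPKM in stomach, 4.54 to 5.0008 in top intestine, 3.36 to 6.07 in bottom intestine and 6.28 to 12.7 in the large bowel. Hoxa5 acts in the mesenchyme of lung and gut. Hoxb3 to Hoxb6 with Mir10a, the unit with the highest level in stomach, stood at 11.7 to 15.4 FPKM in stomach, 6.38 to 10.7 in top intestine and 7.22 to 10.1 in bottom intestine. In colon with rectum and colon it stood at 15.7 to 28.7 FPKM, above all of these, and in rectum at 9.18 and 8.36. Hoxd3 with Hoxd4 and Mir10b stood at 1.17 to 1.88 FPKM in stomach, against 7.27 to 12.6 in colon with rectum and colon. Hoxb8 stayed under 1 FPKM in all parts except colon, at 1.37 and 1.52.

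**Figure D5:**
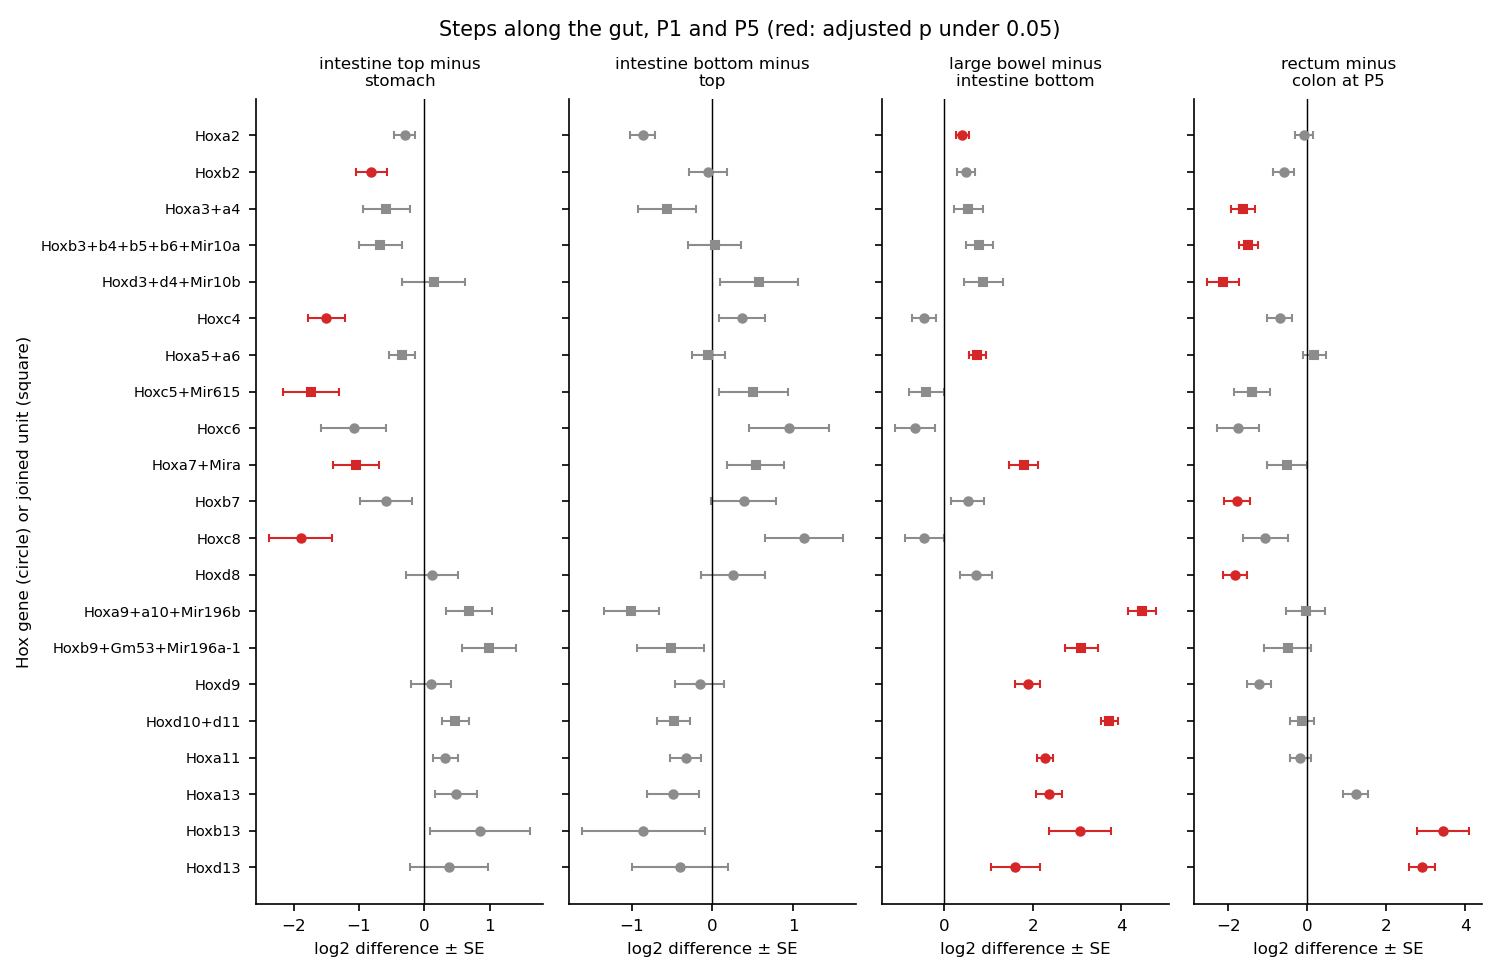
Differences in log2(FPKM + 1), with SE, of the tested Hox units at each step: top intestine minus stomach, bottom minus top intestine, large bowel minus bottom intestine, and rectum minus colon at P5. HoxC units lie below 0 at the first step, groups 9 to 13 above 0 at the third, and Hoxb13 and Hoxd13 above 0 at the last.

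Across the 16 pairs, none of the 8 Hox genes tested differed between percc1-/- and wild type in limma with the pair as a block, against 0.887% of all genes tested. None of the 8 was under an unadjusted p of 0.05. Hoxb13 had the largest difference, 0.37 higher in percc1-/- (SE 0.19, adjusted p = 0.432), and Hoxa2 the next by p, with an adjusted p of 0.633. In the joined table none of 17 units passed, and 1 was under an unadjusted p of 0.05: Hoxa9 with Hoxa10, 0.36 higher (SE 0.17, adjusted p = 0.368). Genotype was also tested within regions, with pairs of different stages or dissected parts as replicates. In the 5 stomach pairs no Hox gene passed (0 of 10, against 0.0226% of all genes tested). Nor did any in the 3 top intestine pairs (0 of 14, against 0.0154%) or the 4 bottom intestine pairs (0 of 14, against 0.0311%). None passed in the 3 large bowel pairs (0 of 14, against 0.015%). The stomach pairs mix whole and bottom stomach, and the large bowel pairs mix colon with rectum, colon and rectum. At an unadjusted p under 0.05 there were 0, 0, 0 and 1 Hox genes, and 610, 798, 787 and 1331 genes in all. A single part at a single stage has 1 library of each genotype, so no difference there could be tested.

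Single pairs did differ, here in log2 of deposited FPKM + 1 without rescaling. In top intestine at P5, 6 of 30 units were over 1 log2 unit higher in the percc1-/- library, against 0.736% of all units, and none lower: Hoxb13 at 7.14 FPKM (Cufflinks bounds 6.03 to 8.25) against 0, Hoxd13 at 1.61 against 0, Hoxa13 at 1.44 against 0, Hoxa9 with Hoxa10 at 2.80 against 0.160, Hoxb9 with Gm53 and Mir196a-1 at 2.96 against 0.611, and Hoxd10 with Hoxd11 at 1.02 against 0. In top intestine at P1, 4 of 30 were higher, against 2.12% of all units, and none lower, among them Hoxb9 with Gm53 and Mir196a-1 at 6.37 FPKM against 0.523 and Hoxa9 with Hoxa10 at 3.03 against 0.115. Without Gm53, the Hoxb9 unit stood at 1.63 FPKM against 0.316 at P1 and 1.14 against 0.423 at P5. Both percc1-/- libraries are those with Car1 at 13.95 and 11.7 FPKM, and the part of large bowel tissue in these values was not tested. At P15 none of 30 units differed by that much. In bottom intestine at P1, 3 of 30 units were lower in the percc1-/- library, against 1.89% of all units. These were Hoxc8 (-1.53), Hoxc6 (-1.02) and Hoxd3 with Hoxd4 and Mir10b (-1.06), the last 2 only just beyond 1 log2 unit. The scale factors of this pair, 0.877 for percc1-/- and 1.009 for wild type, were not applied and would shrink these differences. This percc1-/- library is also the one whose large bowel markers summed to 5.66 FPKM against 25.7. In the remaining pairs 0 to 4 Hox units differed by that much in either direction, and none did in the 5 stomach pairs. Of all units, 0.495% to 2.52% were higher and 0.527% to 2.28% lower by that much in the 13 pairs other than these 3.

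With age, the stomach changed in its Hox levels. Between whole stomach at P1 and P5 and the bottom stomach at P10 to P20, 6 of 10 Hox genes fell, against 9.07% of all genes tested, and none rose. The age and the dissected part changed together and cannot be told apart. All 4 tested HoxC genes were among the 6. Hoxc8 stood at 3.95 to 7.75 FPKM in the 4 younger libraries and 0.453 to 1.11 in the 6 older ones (median 0.521), and fell by 1.95 (SE 0.22, adjusted p = 0.000874). Hoxc5 stood at 4.24 to 6.47 FPKM and then 0.482 to 1.32 (median 0.888), and fell by 1.80 (SE 0.19, adjusted p = 0.000838). Hoxc6 stood at 1.65 to 5.30 FPKM and then 0.044 to 0.613 (median 0.260), and fell by 1.67 (SE 0.26, adjusted p = 0.00309). Hoxc4 stood at 3.88 to 5.30 FPKM and then 0.769 to 1.77 (median 1.09), and fell by 1.60 (SE 0.13, adjusted p = 0.000413). None of the 4 overlapped between the ages, as for 4.19% of all genes tested with the younger libraries above the older, and mean Hoxc4 was 4.78 ± 0.66 FPKM (SD, n = 4) and 1.12 ± 0.37 (SD, n = 6).

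The other 2 were Hoxb7, which fell by 0.81 (SE 0.20, adjusted p = 0.0220), and Hoxb5, which fell by 0.69 (SE 0.14, adjusted p = 0.0116). Without either stomach library of P1 the adjusted p of Hoxb7 was 0.0616 or 0.0619, and without the 2 percc1-/- stomach libraries of P1 and P5 neither gene passed while 406 genes in all did, against 2273. Of the joined units, 8 of 12 fell, against 9.19% of all units, the additions being Hoxa3 with Hoxa4 (-0.77), Hoxa5 with Hoxa6 (-0.85) and Hoxb3 to Hoxb6 with Mir10a (-0.79). The median over the 10 Hox genes was -0.75, against -0.01 over all genes tested. Without rescaling the median over all genes was 0.19 and 2140 genes rose while 650 fell (1070 and 1203 with it), and 5 Hox genes passed. HoxC held 22.7% to 32.5% of the Hox sum in the younger stomach and 6.55% to 11.5% in the older. Markers of squamous epithelium (6 genes), which lines the forestomach, summed to 107 to 166 FPKM in whole stomach and 53.9 to 105.4 in the bottom stomach. Both of the 2 tested fell (median -1.65). Trp63, 1 of the 6, stood at 11.8 to 16.8 FPKM in whole stomach and 1.5 to 4.4 in the bottom stomach. The 11 stomach markers summed to 139 to 416 FPKM and then 567.99 to 908.02. Their part in the fall was not tested.

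In the small intestine none of 14 Hox genes passed between P1 and P5 and the later stages, against 5.93% of all genes tested. At an unadjusted p under 0.05 there were 2, Hoxb6 (0.64 higher later, adjusted p = 0.0995) and Hoxb5 (0.44, adjusted p = 0.133), and 2906 genes in all. The share of groups 9 to 13 in bottom intestine was 11.2% and 4.28% at P10 and 22.2% and 9.67% at P20, above the 2.30% to 4.90% of P1 and P5 in 3 of the 4 libraries. Without the records of Gm53 it was 5.56% and 2.27% at P10 and 8.44% and 4.89% at P20, beside 1.77% to 3.39% at P1 and P5. The largest unit in it was Hoxb9 with Gm53 and Mir196a-1, at 5.08 and 2.25 FPKM at P10 and 14.1 and 3.07 at P20. Hoxb9 in a record of its own stood at 3.86 and 1.19 FPKM at P20. In whole gut at E14.5 the share was 22.9% and 12.3%, and Hoxc10 stood at 1.75 and 0.248 FPKM. The percc1-/- whole gut library also held lung markers (5 genes) summing to 40.6 FPKM against 1.39.

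Hox proteins bind DNA with TALE cofactors of the Pbx, Meis and Pknox families. Of 7 tested in this list of 9, 3 fell from stomach to top intestine, against 19.4% of all genes tested, among them Meis1 (-1.11, SE 0.20, adjusted p = 0.000432) and Pknox2 (-0.60, SE 0.21, adjusted p = 0.0364). From bottom intestine to large bowel 5 of 7 rose, against 16% of all genes, among them Pbx3 (1.27, SE 0.15, adjusted p = 5.9e-05) and Meis2 (1.26, SE 0.26, adjusted p = 0.00215). From whole stomach at P1 and P5 to bottom stomach at P10 to P20, 1 of 8 fell, against 9.07%. That was Meis1 (-1.07, SE 0.20, adjusted p = 0.00705), and age and dissected part cannot be told apart. None of the 7 passed between rectum and colon. Cell class markers moved at the same steps. From stomach to top intestine 6 of 7 smooth muscle and 4 of 7 fibroblast markers fell, and 3 of 5 epithelium markers rose. Of 9 enteric neuron and glia markers 3 fell and 2 rose there. From bottom intestine to large bowel 7 of 7 smooth muscle, 7 of 9 enteric neuron and glia and 3 of 7 fibroblast markers rose. Their part in the cofactor levels was not tested.

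Of the ParaHox genes and cluster neighbours, 3 of a list of 9 were tested. All 3 rose from stomach to top intestine, against 17.4% of all genes tested that rose: Cdx2 (3.61, SE 0.45, adjusted p = 1.8e-05) and Cdx1 (3.36, SE 0.25, adjusted p = 4.5e-07), which specify intestine, and Pdx1 (2.08, SE 0.29, adjusted p = 5.7e-05), which marks the duodenum and antrum. Pdx1 fell from top to bottom intestine by 2.33 (SE 0.29, adjusted p = 0.00582), which made it 1 of the 6 genes that passed there. From whole stomach at P1 and P5 to bottom stomach at P10 to P20, Pdx1 rose by 1.81 (SE 0.17, adjusted p = 0.000626). There 8.07% of all genes rose, and age and dissected part cannot be told apart. Evx2, which lies next to Hoxd13 in the genome, stood at 2.31 and 2.44 FPKM in the rectum libraries and at most 0.118 in the other 30.

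Retinoic acid is an upstream regulator of Hox genes, and 11 of a list of 16 genes of its signalling were tested. From stomach to top intestine 2 rose and 4 fell, against 17.4% and 19.4% of all genes tested, with Crabp2, a retinoic acid binding protein (-2.87, SE 0.37, adjusted p = 2.3e-05), Rarg, a receptor (-1.55, SE 0.23, adjusted p = 0.000101) and Cyp26b1, which degrades it (-1.85, SE 0.34, adjusted p = 0.000523) first by p. From bottom intestine to large bowel 1 fell, Aldh1a3, which makes it (-1.19, SE 0.23, adjusted p = 0.00144), against 14% of all genes that fell. From whole stomach at P1 and P5 to bottom stomach at P10 to P20, 2 rose and 2 fell, against 8.07% and 9.07%. Among them were Cyp26b1 (-2.27, SE 0.30, adjusted p = 0.00139) and Crabp2 (-1.59, SE 0.31, adjusted p = 0.00807). Age and dissected part changed together there. Of 19 polycomb and trithorax genes tested (20 with age in the small intestine), which keep Hox clusters silent or active, 1 passed at any step or age outside the test over all 4 regions: Phc1, 0.61 higher in large bowel than in bottom intestine (SE 0.17, adjusted p = 0.0149). Of the 14 noncoding RNAs of the clusters on the list, 7 have a symbol in the tables and none could be tested. No gene of these lists passed between genotypes.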

How the data were processed

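Each library has 1 deposited table of gene-level FPKM values. Per the submitters' processing notes, Cufflinks 2.2.1, TopHat2 2.0.13 and SAMtools 0.1.18 were used with mm9; an annotation version was not given in the sources used here. The tables hold no read counts, so depth is unknown and no interval is given for counting error, and a 0 means only that a gene is listed at 0. Symbols in merged or failed records had no value in that library. Records of 1 symbol were summed. Libraries were rescaled by their median ratio to the geometric mean over 10023 genes above 1 FPKM in each library.

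Tests used limma 3.58.1 (R 4.3.3) on log2(rescaled FPKM + 1), a scale that understates changes of low genes, with a trended robust prior, for genes averaging 1 FPKM or more with a value in each library of the fit. Adjusted p-values (Benjamini-Hochberg) were called under 0.05. Region fits had stage and genotype as covariates, the genotype fit the pair as a block. The script was tested on simulated data.

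All 38 genes are accounted for. Values by library were given for the members with the largest contrast at each step and for group 13, and up to 3 genes of each list by smallest p. Some listed genes are not reported here by name. The members and lists were chosen with earlier results of these data known. Alternatives were another pseudocount, a filter of 0.2 FPKM, no rescaling, joining merged symbols, single stages, wild type alone, a replicate block and leaving out libraries. Leaving out libraries with markers of another organ, genotype within regions and shares without Gm53 were chosen after seeing the data.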

Additional observations from a re-analysis of the deposited data

Results flagged for a closer look

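In 60 sets, each 1 Hox gene in 4 or 5 libraries of 1 region and genotype, 6 values stood apart by Dixon's test. The level was 95% (critical value 0.829 for 4 libraries). Chance alone flags about 5% of independent sets, but these sets share libraries, so that rate does not apply directly. In bottom intestine of percc1-/- animals, Hoxb6 was high at P20, at 6.871 FPKM. In bottom intestine of wild-type animals, Hoxb2 (3.782 FPKM), Hoxb5 (4.276 FPKM) and Hoxc5 (3.759 FPKM) were high at P10 and Hoxa4 was low at P20 (0.849 FPKM). In stomach of percc1-/- animals, Hoxa5 was low at P20 (1.735 FPKM) among the 4 libraries with a value. The sets span several stages, so a value that stands apart can also be a value of another age.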

How the results depend on the processing

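No Hox gene with an unadjusted p under 0.05 in the main limma fit of a comparison reversed in sign there. Signs of the other tested genes were not checked. The Hox median from stomach to top intestine did reverse (-0.10, and 0.05 or 0.11 as given above). Hox medians near 0 also changed sign from top to bottom intestine (-0.11, and 0.09 without the percc1-/- top intestine libraries of P1 and P5), for genotype and for stage in small intestine. Counts of genes called (Hox genes where stated) moved by over 1.5 times as follows. With merged symbols joined, the Hox counts went from 8 to 15 over regions, 3 to 5 from stomach to top intestine, 6 to 11 from bottom intestine to large bowel and 4 to 7 between rectum and colon, since more units were tested. With P1 alone the counts over all genes were 2826 for regions (5997), 2323 for top intestine minus stomach (4850), 0 for bottom minus top (6) and 2004 for large bowel minus bottom (3956). With P5 alone they were 2876, 2642, 3 and 844, with 2 Hox genes at the last step. For bottom minus top, 1 gene passed with a pseudocount of 0.1 and 64 in wild type alone. After leaving out libraries with markers of another organ, 62 genes and 1 Hox gene passed there without 7 libraries and 29 genes without 2. Rectum minus colon had 122 genes, and 187 with 8 Hox genes at a filter of 0.2 FPKM.

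Genotype had 116 genes, 22 with no replicate block, 184 without whole gut, 55 without the top intestine pairs of P1 and P5 and 10 without 7 pairs. In single regions it had 3 genes in stomach pairs, 2 in top intestine, 4 in bottom intestine and 2 in large bowel pairs, with fewer pairs in each. Stage in small intestine had 758, 453 without 2 libraries, 350 without 4 and 16 in bottom intestine alone. Stage in stomach had 2273, and 406 with 3 Hox genes without 2 libraries. With stage and genotype as a replicate block the counts were 6016, 4849, 3 and 3995 for regions and the 3 steps. These cells only share labels, since nothing states that their libraries share animals.

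Leaving out each library or pair in turn gave 5418 to 6169 genes over regions (7 to 11 Hox genes), 4030 to 4947 (2 to 4), 2 to 17 (0 to 1) and 2963 to 4284 (4 to 7) at the 3 steps, 13 to 191 (0 to 5) between rectum and colon, 68 to 184 (0) for genotype, 243 to 1027 (0 to 1) for stage in small intestine and 1144 to 2604 (4 to 8) for stage in stomach. For Hox genes with an unadjusted p under 0.05 in the main limma fit, 654 single-gene results under all alternatives kept their side of the threshold. Another 46 lost it and 12 gained it, and the causes were not tested.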

Other observations

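Unnamed records of Cufflinks overlapped exons of 18 of the 38 Hox genes in 30 of the 32 libraries. Their FPKM was not added to the genes, and its part in the levels was not tested. In the percc1-/- rectum library such a record over Hoxb13 stood at 5.70 FPKM, beside 32.58 FPKM for the named record.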
